A study of Gallus gallus with 2 samples.

Results

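The genes described here are immediate early genes and genes of the AP-1 family in chicken skin, namely *FOS*, *FOSL2*, *JUN*, *JUND*, *ATF3*, *EGR1*, *IER2*, *MYC*, *CTGF* and *CYR61*. Each gene was taken as the locus whose symbol was identical to its name, without loci whose estimate had failed, and 7 of the 10 genes had such a locus among the 22853 loci of the table. *FOS*, *JUND* and *IER2* matched no locus by symbol and were not analysed here. In the table, 3642 loci carry only an identifier and 5301 carry no name, and no locus was assigned to these 3 genes from its position.

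The study set Lueyang chickens with black skin (BS) against Lueyang chickens with white skin (WS), all of them females of 16 weeks. Skin was taken from the left back as a piece 8 mm in diameter, and RNA of 3 of the 5 birds sampled per color was pooled into 1 library for WS and 1 library for BS. All expression values are FPKM, the fragments mapped to a locus per length of its exons and per number of mapped reads. Comparisons of level between genes rest on the exon length assigned to each locus, which was not checked here. The most abundant locus held 54.7% of the summed FPKM in WS and 30.7% in BS. A share of summed FPKM is not a share of reads, so how far this difference bears on comparisons between the libraries is not known. Values under other scalings of BS are given below. The scalings used multiply the BS values by 1.05 to 1.10. There is no replicate of either color, so no test between the colors was possible, and every difference below is a difference between these 2 libraries. The number of reads behind each FPKM value was not derived here. Where 2 values are joined by "against", WS comes first. Fold changes are BS over WS on the log2(FPKM + 1) scale, which makes the change of low genes look smaller.

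Immediate early genes are switched on within minutes of a growth factor, a wound or a stress, without the need for new protein. The signal reaches them through MAP kinases, which act on promoter-bound factors such as the serum response factor and CREB. AP-1 is a family of dimers in which a Jun protein pairs with a Jun, Fos or ATF protein, and in skin it is known for its part in wound healing and in the differentiation of keratinocytes. *CTGF* and *CYR61*, also called *CCN2* and *CCN1*, encode secreted matrix proteins of the CCN family, which are induced as quickly by serum and by mechanical load through YAP.

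The 7 genes were all expressed in both libraries. In WS, they ranged from 11.3 FPKM (*ATF3*) to 204 FPKM (*JUN*), and in BS from 15.2 FPKM (*MYC*) to 167 FPKM (*JUN*). All of these values were above the median of the loci that reached 1 FPKM in either library, which was 9.63 FPKM in WS against 9.50 in BS. *CTGF* was the gene with the largest difference, more than 2-fold higher in BS. *ATF3* was higher in BS by a smaller margin, and *EGR1*, *FOSL2*, *JUN* and *MYC* were lower in BS, none of them by 2-fold. *CYR61* was at almost the same level in both.

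**Figure D1:**
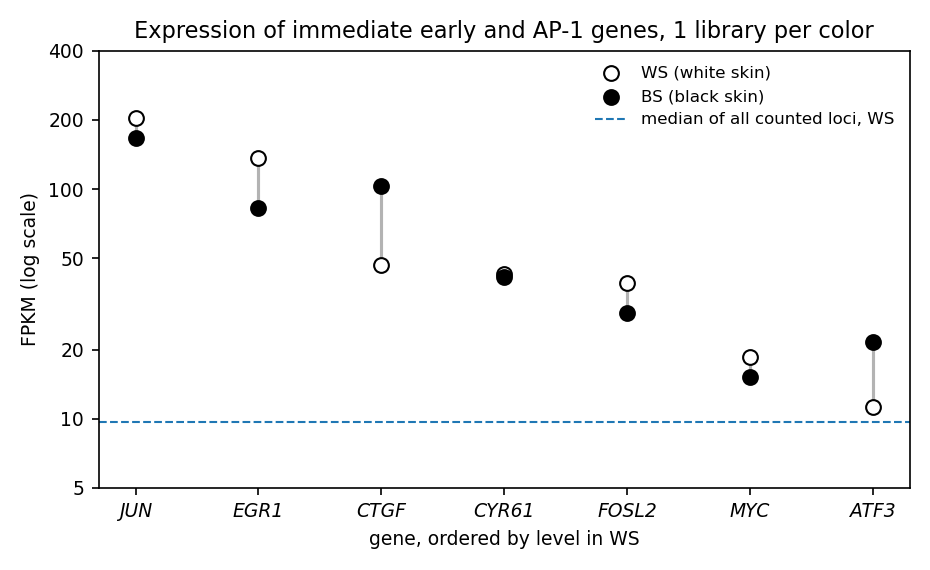
FPKM (log axis) of the 7 genes in the WS library (open points) and the BS library (filled points), with 1 library per color and no error bars, and the median of all counted loci in WS as a dashed line. The filled point lies above the open point for *CTGF* (46.8 FPKM in WS, 104 FPKM in BS) and *ATF3* (11.3 FPKM and 21.6 FPKM), and the filled point lies below the open point for *JUN*, *EGR1*, *FOSL2* and *MYC*.

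Among *JUN*, *FOSL2* and *ATF3*, the listed AP-1 genes that had a locus, *JUN* was the most abundant. *FOS* and *JUND* could not be ranked, and the relative *ATF4*, described below, stood higher. *JUN*, which encodes the founding Jun protein and can form AP-1 with itself or with a Fos partner, stood at 204 FPKM in WS against 167 in BS, a log2 fold change of -0.29. It was above 96.7% of the 18608 expressed loci in WS and above 96.2% in BS. The locus lies on chromosome 8 from 27142459 to 27143404, a span of only 945 bp, and does not overlap another expressed locus. Here and below, coordinates are given as deposited. Their build is unsettled, since galGal4 stands in the submitters' processing notes and another reference file in the study's methods.

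*FOSL2*, which encodes the Fos partner Fra-2, stood at 38.8 FPKM in WS against 28.8 in BS, a log2 fold change of -0.42. Expressed per length, *JUN* was 5.24 times as abundant as *FOSL2* in WS and 5.79 times in BS. The locus of *FOSL2* lies on chromosome 3 from 28583433 to 28603506. It overlaps 3 unnamed loci to which the table gives the same span, so this span is not known to be that of *FOSL2* itself. Throughout, an overlap is one of the spans given, without strand or exons. Reads of overlapping loci may have been divided between them. Of these, XLOC_014413 stood at 1.30 FPKM in WS against 9.74 in BS, XLOC_014414 at 0.855 against 1.14 FPKM, and XLOC_014415 at 2.70 against 1.44 FPKM. *FOSL2* was the only one of the 7 genes with such an overlap.

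*ATF3*, which encodes a stress-induced partner of Jun that often acts as a repressor, was higher in BS. It stood at 11.3 FPKM in WS against 21.6 in BS, a plain ratio of 1.91 and a log2 fold change of 0.88. This difference was larger than that of 86.3% of counted loci. *ATF3* was the lowest of the 7 genes in WS, above 62.6% of expressed loci, and it stood above *MYC* in BS, where it was above 76.4% of them. *JUN* exceeded *ATF3* 18.0 times in WS and 7.72 times in BS. The locus lies on chromosome 3 from 22991623 to 23015994. When BS was scaled so that the totals without the 50 most abundant loci were equal, the log2 fold change of *ATF3* was 1.01, just past 2-fold.

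*EGR1*, a zinc finger factor that is the classic target of the serum response factor, stood at 136 FPKM in WS against 82.6 in BS. It was 1.65 times as high in WS, with a log2 fold change of -0.71, larger in size than that of 80.3% of counted loci. It ranked below *JUN* in both libraries and exceeded *ATF3* 12.1 times in WS and 3.83 times in BS. The locus spans 3089 bp on chromosome 13 from 18848289 to 18851378. *MYC*, which drives growth and the cell cycle together with its partner Max, was at 18.5 FPKM in WS against 15.2 in BS, a log2 fold change of -0.27. It lies on chromosome 2 from 145391230 to 145395147. These genes were lower in BS under every pseudocount and scaling tried, and so were *JUN* and *FOSL2*.

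The CCN genes *CTGF* and *CYR61* were near each other in WS and far apart in BS. *CTGF*, which promotes the deposition of collagen and is induced by TGF-beta, stood at 46.8 FPKM in WS against 104 in BS, a plain ratio of 2.21 and a log2 fold change of 1.13. It was above 87.2% of expressed loci in WS and above 94.3% in BS, and its difference was larger than that of 92.4% of counted loci. *CYR61*, which supports cell adhesion and wound repair, was at 42.5 FPKM in WS against 41.3 in BS. Its log2 fold change was -0.04, and the sign turned to positive under the 3 scalings tried (0.03 to 0.09). The ratio of *CTGF* to *CYR61* was 1.10 in WS and 2.51 in BS. *CTGF* lies on chromosome 3 from 59163393 to 59165681 and *CYR61* on chromosome 8 from 16906648 to 16908610, and neither overlaps another expressed locus.

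In order of level, the genes ran *JUN*, *EGR1*, *CTGF*, *CYR61*, *FOSL2*, *MYC* and *ATF3* in WS. In BS the order was *JUN*, *CTGF*, *EGR1*, *CYR61*, *FOSL2*, *ATF3* and *MYC*. *CTGF* exchanged its place with *EGR1*, and *ATF3* with *MYC*. Without replicates, it cannot be said which neighbors in either order differ beyond the spread between birds. The span between the highest and the lowest gene was 18.0-fold in WS and 10.9-fold in BS.

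In all, 1 of the 7 genes was higher in BS by 2-fold or more and none was lower by 2-fold or more. Among all 15020 loci that reached 1 FPKM in either library, 10.3% were at least 2-fold apart, 4.61% with the higher value in BS and 5.69% with the lower value in BS. A single gene of 7 past 2-fold is near this background and is no result about the group. By any margin, 2 genes were higher in BS and 5 were lower, beside 56.1% of all counted loci lower. Under each of the 3 scalings, 3 genes were higher and 4 were lower, beside 44.3% to 49.7% of counted loci lower. Their median log2 fold change was -0.27, beside -0.06 over all counted loci. Counts over all loci were 693 higher in BS and 855 lower, and 883 and 682 with the totals without the 50 most abundant loci set equal, a scaling that shifts every log2 ratio by 0.13 before the pseudocount.

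**Figure D2:**
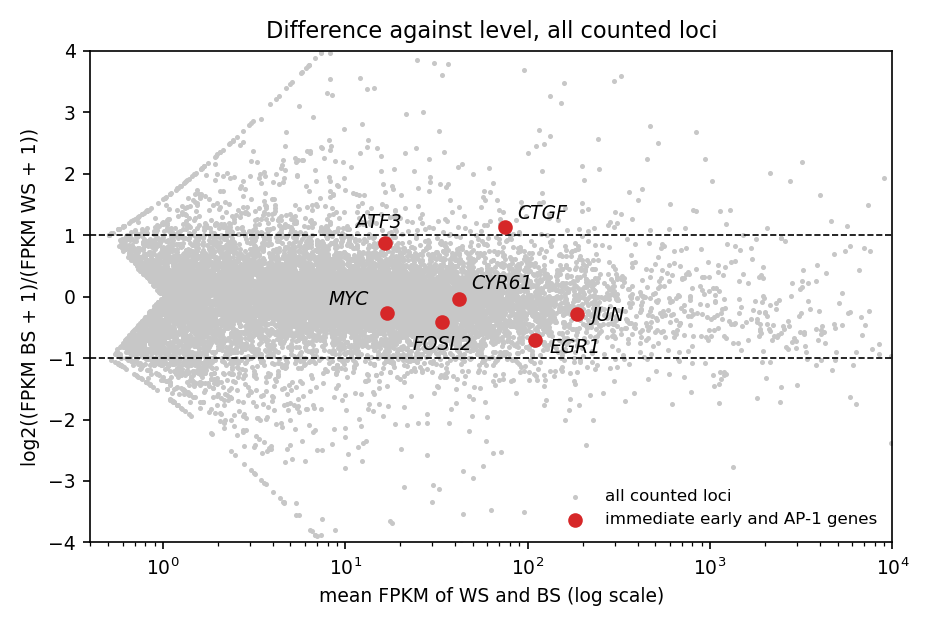
Log2 fold change of BS over WS against the mean FPKM of both libraries (log axis) for the counted loci (gray) and the 7 genes (red), with dashed lines at 2-fold in either direction. *CTGF* (1.13) is the gene above the upper line, *ATF3* (0.88) lies just under it, and the other genes lie between -0.71 and -0.04. The 110 loci beyond the axes are not drawn.

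Genes related to these 7 by pathway were counted in 7 lists, which hold 186 genes. Of these, 134 have a locus and 122 reached 1 FPKM in either library. Among the 122 genes, 2 were higher in BS by 2-fold or more and 7 were lower by 2-fold or more. Together this is 7.38%, beside 10.3% of all counted loci. The median log2 fold change of the 122 genes was -0.08, beside -0.06 over all counted loci. A further 6 genes were listed at 0 in both libraries. All 6 lie on chromosome Z or on sequences outside the numbered chromosomes. No listed gene or marker on these sequences was above 0, so a 0 there is not read as absent expression. The lists describe the surroundings of the 7 genes, and no list was tested against others. The medians of the AP-1 relatives, the MAPK and SRF genes and the CCN and YAP genes turned positive under the 3 scalings (0.01 to 0.11), and that of the MYC network did so under the scaling by totals (0.03), so no direction is given for these lists. Without loci that overlap another expressed locus, the medians of the AP-1 relatives (0.01) and of the AP-1 targets of skin (0.02) were positive, and no direction is given for the latter either.

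**Figure D3:**
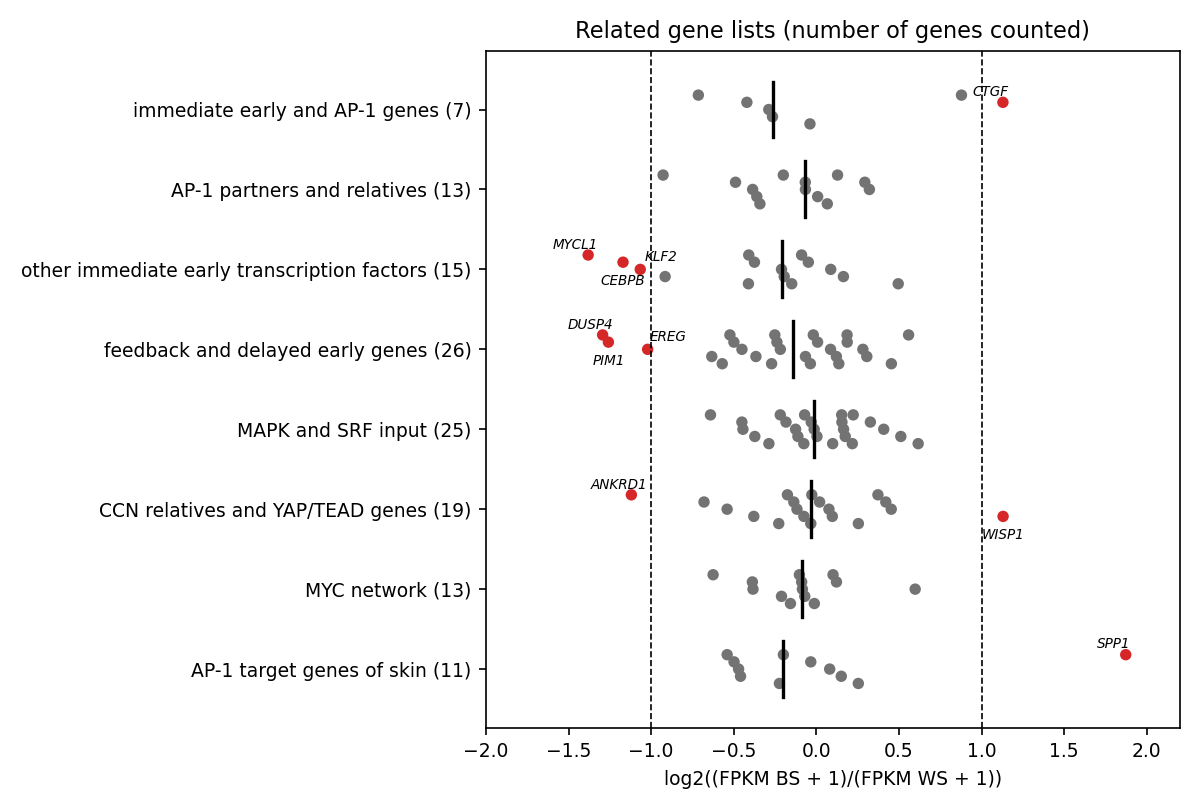
Log2 fold change of BS over WS for the 7 genes (top row) and for the counted genes of 7 lists, with 1 point per gene, the median of each list as a black bar, and genes at least 2-fold apart in red with their symbols. The medians lie between -0.27 for the 7 genes and -0.01 for the MAPK and SRF list, and the red points of the transcription factor and feedback lists are all on the side lower in BS.

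None of the 13 partners and relatives of AP-1 was 2-fold apart, beside 10.3% of all counted loci. Their median log2 fold change was -0.07. The most abundant was *ATF4*, the factor of the integrated stress response, at 736 FPKM in WS against 563 in BS (log2 fold change -0.39), in a locus that overlaps 9 others. Other relatives, chosen after their values were seen, were *JDP2*, a repressor that pairs with Jun, at 75.5 against 58.6 FPKM (-0.36), and the small Maf gene *MAFK*, at 104 against 54.0 FPKM (-0.93), in a locus that overlaps 3 others.

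In the list named other immediate early transcription factors, 12 of the 15 genes counted were lower in BS, and 10 or 11 under the scalings. Beside this, 56.1% of all counted loci were lower as deposited and 44.3% to 49.7% under the scalings. The list is broad and also holds genes such as *MYCL1* and *BTG1*, so its counts are not read as those of immediate early genes alone. Of the 15 genes, 3 were lower by 2-fold or more, beside 5.69% of all counted loci. None was 2-fold higher, beside 4.61% of all counted loci, and the median was -0.21. *MYCL1*, a relative of *MYC*, stood at 117 FPKM in WS against 44.5 in BS (log2 fold change -1.38), in a locus of 555 bp. The ratio of *MYC* to *MYCL1* was 0.158 in WS and 0.342 in BS. *CEBPB*, a bZIP factor of inflammation and keratinocyte differentiation, was at 212 against 93.7 FPKM (-1.17). The locus named *KLF2* stood at 159 against 75.5 FPKM (-1.07), and it was just short of 2-fold under the 3 scalings (-0.99 to -0.93). It is 1 of 2 loci with this symbol and overlaps another expressed locus. Without overlapping loci, 2 genes of the list were lower by 2-fold or more. The most abundant genes of the list were the antiproliferative gene *BTG1*, at 435 against 409 FPKM (-0.09, and 0.04 under the scaling by totals), and *ID2*, an inhibitor of basic helix-loop-helix factors, at 397 against 306 FPKM (-0.37).

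Feedback and delayed early genes include the phosphatases, ligands and survival genes that follow the first response. Of 26 genes counted, 3 were lower in BS by 2-fold or more (2 under the scalings), beside 5.69% of all counted loci. None was 2-fold higher (1 at a pseudocount of 0.1), and the median was -0.14. By any margin, 10 were higher and 16 lower. Under the scaling by totals, 13 were higher and 13 lower with a median of -0.02, so no direction is given for this list. *DUSP4*, a phosphatase that turns off MAP kinases, stood at 55.6 FPKM in WS against 22.1 in BS (log2 fold change -1.29). *PIM1*, a survival kinase, was at 103 against 42.5 FPKM (-1.26), in a locus of 627 bp. *EREG*, a ligand of the EGF receptor, was at 53.9 against 26.1 FPKM (-1.02), and short of 2-fold under a pseudocount of 5 (-0.92) and under the scalings (-0.95 to -0.89). The most abundant were *MCL1*, which protects from cell death, at 362 against 364 FPKM (0.01), in a locus that overlaps 3 others, and *NFKBIA*, the inhibitor of NF-kappaB, at 251 against 169 FPKM (-0.57).

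Of 25 kinases and factors counted that carry the signal to these genes, none was 2-fold apart, beside 10.3% of all counted loci. Their median was -0.01. *MAPK14*, the kinase p38-alpha, stood at 107 FPKM in WS against 78.4 in BS (log2 fold change -0.44), in a locus that overlaps 4 others. These are levels of transcripts, and the activity of the kinases was not measured. Of the 13 genes of the MYC network, none was 2-fold apart (median -0.09), beside 10.3% of all counted loci. The nucleolar genes *NPM1* (5261 against 4900 FPKM, log2 fold change -0.10, and 0.03 under the scaling by totals) and *NCL* (200 against 180 FPKM, -0.16) were its most abundant.

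Relatives of *CTGF* and *CYR61* and other genes of the YAP and TEAD pathway gave 19 counted genes, with a median of -0.03. Of these, 1 was higher in BS by 2-fold or more, beside 4.61% of all counted loci. In addition, 1 was lower by 2-fold or more, beside 5.69% of all counted loci. *WISP1*, a further CCN gene, was higher in BS, at 4.24 FPKM in WS against 10.5 in BS (log2 fold change 1.13, or 0.74 at a pseudocount of 5). The CCN genes *NOV*, at 58.2 against 52.8 FPKM (-0.14), and *WISP2*, at 9.58 against 13.2 FPKM (0.42), both chosen after their values were seen, were within 2-fold. In the other direction, *ANKRD1*, a target of YAP, was at 46.4 against 20.8 FPKM (-1.12, and -0.99 both with a pseudocount of 5 and under the scaling by totals). *CTGF* and *ANKRD1*, both known in mammals as targets of YAP, differed in opposite directions. *CYR61* (-0.04) was within 2-fold. So were *AMOTL2* (-0.68) and *THBS1* (0.25), each in a locus that overlaps another and chosen after their values were seen. No direction is given for targets of YAP. The most abundant genes were *TEAD4*, the DNA-binding partner of YAP, at 98.8 against 75.8 FPKM (-0.38), and *NF2*, an upstream inhibitor, at 71.2 against 92.5 FPKM (0.37), in a locus that overlaps another.

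Genes taken as AP-1 targets of skin were counted as the last list. Of 11 genes, 1 was higher in BS by 2-fold or more, beside 4.61% of all counted loci. None was 2-fold lower, beside 5.69% of all counted loci, and the median was -0.20. *SPP1*, which encodes osteopontin, stood at 2.96 FPKM in WS against 13.5 in BS (log2 fold change 1.87, or 1.22 at a pseudocount of 5). The most abundant genes of the list were *MMP2*, a gelatinase, and *TIMP3*, an inhibitor of metalloproteases. *MMP2* was at 205 against 245 FPKM (0.25). *TIMP3* was at 451 against 386 FPKM (-0.22), in a locus that overlaps another. At the low end, *MMP1*, *MMP10* and *IL8* were below 1 FPKM in both libraries and were not counted. *MMP13* was at 0.973 against 1.19 FPKM and *MMP9* at 1.30 against 1.43 FPKM.

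Both libraries showed markers of the cell types listed, and the levels of these markers differed between the libraries. In bulk tissue, fewer cells of a type and less RNA per cell cannot be told apart. Beside the 2-fold counts that follow, 5.69% of all counted loci were lower in BS by 2-fold or more and 4.61% were higher. A single marker past 2-fold is no result about its cell type. Of 9 keratinocyte markers counted, 4 were lower in BS by 2-fold or more, and the summed level of the list was 3096 FPKM in WS against 1746 in BS, with *KRT5* listed at 0 in both. Red blood cell markers summed to 5206 against 2616 FPKM (2 of 5 lower by 2-fold or more). Fibroblast markers summed to 9288 against 5272 FPKM, of which *COL1A2* made up 6495 against 2852 FPKM. Of these 8 markers, 1 was lower by 2-fold or more. By any margin, 4 were higher in BS and 4 were lower, with a median log2 fold change of -0.02, so no direction is given for fibroblasts. Higher in BS were the summed markers of skeletal muscle (13676 against 25850 FPKM, 2 of 8 higher by 2-fold or more, *TNNC2* listed at 0), smooth muscle (3269 against 3883 FPKM, 2 of 7), melanocytes (102 against 210 FPKM, 7 of 11, *TYRP1* listed at 0), leukocytes (210 against 292 FPKM, 1 of 9) and endothelium (249 against 313 FPKM, none of 8, *TEK* listed at 0). By any margin, 1 keratinocyte marker and 1 red blood cell marker were higher in BS. Lower in BS were 2 melanocyte, 1 smooth muscle and 1 endothelium marker, and no skeletal muscle or leukocyte marker. The lower smooth muscle marker, *DES*, made up 2372 against 2208 FPKM of its list, in a locus that overlaps 14 others. Of the skeletal muscle sum, *ACTA1* made up 9387 against 17804 FPKM, in a locus that overlaps 3 others. The markers listed at 0 lie on chromosome Z or outside the numbered chromosomes, where no listed gene was above 0. They are not read as absent. The part of these cell types in the values of *CTGF*, *ATF3* or *EGR1* was not tested.

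**Figure D4:**
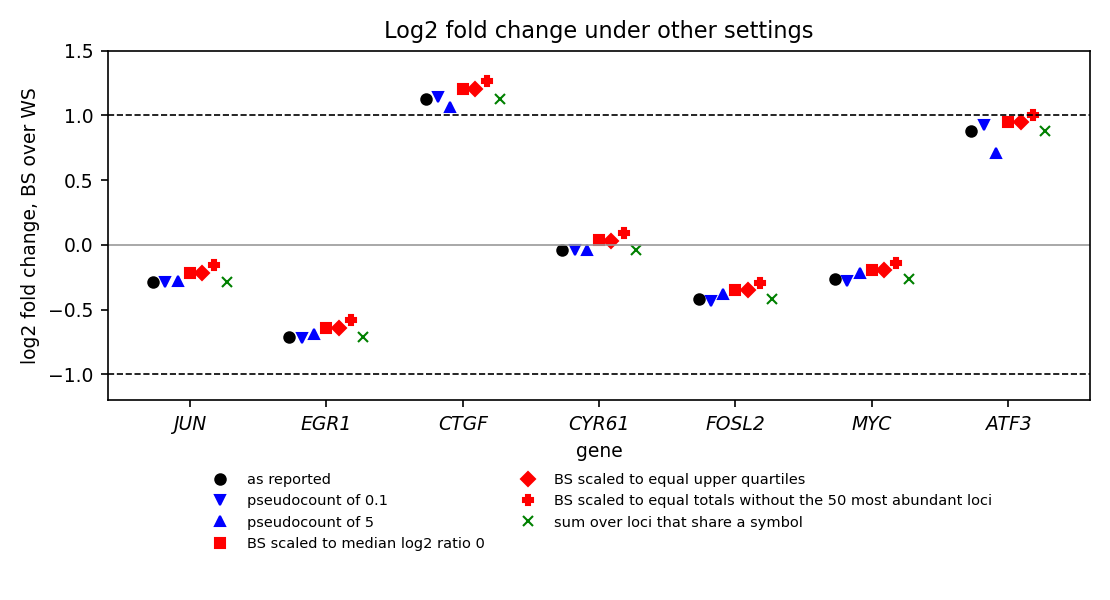
Log2 fold change of BS over WS of each of the 7 genes as reported (black), with a pseudocount of 0.1 or 5 (blue), under 3 scalings of the BS library (red) and as the sum over loci that share a symbol (green), with dashed lines at 2-fold. *CTGF* lies above the upper line, between 1.07 and 1.26, *ATF3* lies between 0.71 and 1.01, and *CYR61* lies on both sides of 0.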

How the data were processed

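RNA-Seq was run on 1 library per skin color. The authors computed FPKM with Cuffdiff, per the labels, and the methods name Bowtie for mapping. Versions are not given in the sources used here. The deposited tables also hold the authors' own fold changes, test statistics, p values and marks of significance, none of which was used.

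Symbols were matched exactly, and the locus with the highest mean was kept. All 7 matched symbols are symbols or synonyms in the RefSeq annotation of GRCg7b, used for names only. Log2 fold changes used a pseudocount of 1, and counts cover loci that reached 1 FPKM in either library. The values used are FPKM and not read counts, so no counting interval was computed. The genes and lists were chosen with earlier results of these data known. Named genes were the 10 listed and, per related list, up to 4 genes at least 2-fold apart and the 2 with the highest mean, and the most abundant marker of a cell type. Not all genes and markers so chosen are reported here, and genes chosen after their values were seen are named as such.

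Results were recomputed with pseudocounts of 0.1 and 5, without the filter and with a filter of 5 FPKM, under 3 scalings of BS (median log2 ratio set to 0, equal upper quartiles, equal totals without the 50 most abundant loci), with sums over loci that share a symbol, without overlapping loci and with a threshold of 1.5-fold. As a check of the code only, the procedure was run on simulated data with planted changes larger than 2-fold in loci of at least 5 FPKM. The simulation used a set noise and no measured spread between birds, so it does not bear on the differences reported. Python 3.11.15, pandas 2.3.3, numpy 2.4.6 and matplotlib 3.10.9 were used.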

Additional observations from a re-analysis of the deposited data

How the results depend on the processing

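The log2 fold changes of *CTGF*, *JUN*, *EGR1*, *FOSL2*, *MYC* and *CYR61* stayed on the same side of 2-fold under the pseudocounts, scalings and sums tried, and that of *ATF3* was 1.01 with totals apart from the 50 most abundant loci set equal. With that scaling, 2 of the 7 genes were higher in BS by 2-fold or more and 4 genes of the related lists were 2-fold lower, since every BS value is raised. Beside these counts, 883 of the 15206 loci counted under that scaling were higher and 682 lower. At a threshold of 1.5-fold, 2 of the 7 genes were higher in BS and 1 was lower, and the related lists gave 4 higher and 13 lower. Of all 15020 counted loci, 1722 were higher and 2267 lower at this threshold. Such counts over 7 genes are no result about the group. At a pseudocount of 5, 1 gene of the lists was 2-fold higher and 5 were 2-fold lower, beside 287 higher and 306 lower of all 15020 counted loci.

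Counts over all loci were 1198 higher in BS and 1559 lower with a pseudocount of 0.1, 287 and 306 with a pseudocount of 5, 447 and 487 among loci that reached 5 FPKM in either library, and 1722 and 2267 at a threshold of 1.5-fold. The median of the 7 genes lay between -0.28 and -0.14. No paired analysis was possible because there is 1 library per color. Moves were judged against 1.5-fold, since no spread between replicates is known.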

Other observations

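The 7 genes lie on 4 chromosomes, with *FOSL2*, *ATF3* and *CTGF* on chromosome 3 and *JUN* and *CYR61* on chromosome 8. The nearest named loci on either side were looked at after the values were seen, 13 in all. *ATF3* (log2 fold change 0.88) is followed after 57969 bp by *NENF*, at 18.8 FPKM in WS against 27.2 in BS (0.51), and preceded at 23546 bp by *BATF3*, a further bZIP factor, at 2.32 against 3.07 FPKM (0.29). *CTGF* (1.13) lies 97359 bp before *ENPP3*, at 1.83 against 4.31 FPKM (0.91), and 219697 bp after *MOXD1*, at 147 against 137 FPKM (-0.11). *CYR61* (-0.04) lies 68972 bp before *DDAH1*, an enzyme that breaks down inhibitors of nitric oxide synthase, which stood at 2.60 FPKM in WS against 7.94 in BS (1.31). The nearest neighbor of *CYR61*, *ZNHIT6* at 6705 bp before it, was at 9.18 against 9.95 FPKM (0.10). Beside genes lower in BS, *PLB1* lies 27490 bp before *FOSL2*, at 6.91 against 3.15 FPKM (-0.93), and *REEP2* 23235 bp before *EGR1*, at 12.9 against 8.35 FPKM (-0.57). Of the other 5 neighbors, *5S_rRNA* after *MYC* was listed at 0 in both libraries, and the log2 fold changes of the rest lay between -0.01 (*MYSM1*) and 0.20 (*FGGY*). No test of position was made.

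Among the unnamed loci given the same span as *FOSL2*, XLOC_014413 differed most, at 1.30 FPKM in WS against 9.74 in BS (log2 fold change 2.23). *FOSL2* itself was lower in BS. The table gives no strand or exons for XLOC_014413, so its reads cannot be told apart from those of *FOSL2* here.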
